A study of Homo sapiens with 32 samples.

Results

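Chemokines and their receptors were followed as a group of genes across H3K27me3 island lists from MDA-MB-231, a long-established line of triple-negative breast cancer cells. The genes are the protein-coding RefSeq genes on GRCh38 whose symbols name a CC, CXC, XC or CX3C chemokine, a receptor of one of these classes, or an atypical chemokine receptor. The rule gave 66 genes, of which 64 were placed on chromosomes 1 to 22 and X, among 19821 protein-coding genes placed there. CCL3L1 and CCL4L1, listed with scaffold coordinates, were not analysed here. The 64 genes were 43 ligands, 17 signalling receptors and 4 atypical receptors.

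Chemokines are small secreted proteins that guide migrating cells along gradients. They act through G protein-coupled receptors, and atypical receptors bind them without this signalling and clear or carry them. Most are made by stromal, endothelial and immune cells, and many carcinomas also make inflammatory CXC chemokines. H3K27me3, trimethylation of lysine 27 of histone H3, is a mark of Polycomb-repressed chromatin that is written by EZH2. The genes for CXCL9 and CXCL10, which attract T cells through CXCR3, are known from other work as targets of EZH2-linked silencing in tumour cells.

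All groups were MDA-MB-231 cells harvested after 24 h, and each had 4 H3K27me3 libraries. The combo group received an EZH2 inhibitor together with a p38 MAP kinase inhibitor, the EPZ group the EZH2 inhibitor alone, the P38i group the p38 inhibitor alone, and the control group no treatment. The EPZ group is named EP7 in the sample titles. The libraries were made by ChIPmentation, in which the transposase Tn5 adds sequencing adapters to immunoprecipitated chromatin. The other 16 libraries of the series were made with IgG and had no role here. Whether replicates were separate cultures is not stated in the labels, so p-values measure the spread between libraries, which may be technical.

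Each list holds the start and end of islands, stretches of clustered reads called by SICER, with no height or count. The measure for each gene was the percent of its span and 2.5 kb on each side that lay within islands, called coverage here. It describes what was called in each library and not the amount of the mark, and the read depth is unknown. The lists held 53290 to 85194 islands each. They covered 526 to 615 Mb in combo, 474 to 587 Mb in EPZ, 533 to 674 Mb in P38i and 484 to 669 Mb in control libraries. Of 8 fixed markers of mesenchymal breast cancer cells, 7, among them VIM and CD44, had no island in any library, and MSN had a mean coverage of 3.59%. No island in any library was also seen at 7 of 10 luminal, 3 of 4 myeloid and 4 of 8 lymphocyte markers, and at 5 of 5 housekeeping genes. Among all protein-coding genes, 67.9% had none. Islands at markers cannot identify a cell line by themselves.

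The promoters of 6 genes are printed because the results turn on them or on their contrast. CXCL9, CXCR2 and CXCL12 are named in the comparisons. CXCL10, the neighbour of CXCL9, CXCL8, a CXCR2 ligand with no island, and CXCR4, the receptor of CXCL12, were chosen after their values were seen. Each sequence is the 250 bases before the start in the RefSeq promoter table on GRCh38.p14, written 5′ to 3′ on the strand of the gene. That start is the edge of the gene span for 35 of the 44 genes with an entry, and lies inside the span for the other 9. Of the genes printed, the start lies inside the span for CXCR2, by 734 bases. The first 4 are CXCL9 at chr4:76007510-76007759 on the minus strand, CXCL10 at chr4:76023498-76023747 on the minus strand, CXCR2 at chr2:218125778-218126027 on the plus strand and CXCL8 at chr4:73740319-73740568 on the plus strand. In these, capitals mark matches, on either strand, to GAAANNGAAA, the core of the interferon-stimulated response element (ISRE), to TTCNNNGAA, the gamma-activated site (GAS), or to GGGANNTTCC, a form of the NF-kB site.
CXCL9: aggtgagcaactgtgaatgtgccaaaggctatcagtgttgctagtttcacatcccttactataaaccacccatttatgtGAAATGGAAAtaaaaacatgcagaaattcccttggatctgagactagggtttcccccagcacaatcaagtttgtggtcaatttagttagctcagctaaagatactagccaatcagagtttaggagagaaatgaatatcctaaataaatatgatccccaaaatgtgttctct
CXCL10: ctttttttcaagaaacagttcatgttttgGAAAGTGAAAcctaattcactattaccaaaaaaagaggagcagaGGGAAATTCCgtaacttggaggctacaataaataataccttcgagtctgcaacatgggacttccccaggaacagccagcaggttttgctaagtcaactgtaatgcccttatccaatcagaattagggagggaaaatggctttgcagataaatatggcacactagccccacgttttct
CXCR2: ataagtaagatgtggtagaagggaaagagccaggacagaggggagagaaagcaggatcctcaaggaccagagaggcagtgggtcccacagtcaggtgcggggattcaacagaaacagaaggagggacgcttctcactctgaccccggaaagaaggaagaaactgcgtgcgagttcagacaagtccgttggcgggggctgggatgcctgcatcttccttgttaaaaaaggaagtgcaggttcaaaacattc
CXCL8: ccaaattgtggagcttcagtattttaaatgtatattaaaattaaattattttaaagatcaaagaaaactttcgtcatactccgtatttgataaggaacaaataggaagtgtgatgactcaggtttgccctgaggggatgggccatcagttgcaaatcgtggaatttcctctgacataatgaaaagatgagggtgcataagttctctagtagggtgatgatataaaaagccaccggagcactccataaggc

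In the next pair, capitals mark CpG dinucleotides. CXCR4 lies at chr2:136118150-136118399 and CXCL12 at chr10:44385098-44385347, both on the minus strand. The CXCR4 stretch holds 24 CpGs and the CXCL12 stretch 31.
CXCR4: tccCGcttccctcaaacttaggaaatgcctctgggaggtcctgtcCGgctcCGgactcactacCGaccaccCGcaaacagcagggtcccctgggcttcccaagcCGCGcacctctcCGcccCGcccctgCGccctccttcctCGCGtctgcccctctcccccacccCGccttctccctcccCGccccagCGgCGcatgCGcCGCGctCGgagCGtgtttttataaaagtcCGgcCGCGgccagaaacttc
CXCL12: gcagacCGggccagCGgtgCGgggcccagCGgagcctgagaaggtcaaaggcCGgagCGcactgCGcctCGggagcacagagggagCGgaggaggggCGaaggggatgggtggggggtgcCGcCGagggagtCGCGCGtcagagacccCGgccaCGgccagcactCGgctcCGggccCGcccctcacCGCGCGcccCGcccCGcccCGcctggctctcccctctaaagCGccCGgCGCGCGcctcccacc

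The CXCL9 stretch matched the ISRE core, and the CXCL10 stretch matched the ISRE core and the NF-kB form, with no overlap between them. The CXCR2 and CXCL8 stretches held no match to these letters. The CXCL8 stretch does hold tggaatttcc, which differs from the NF-kB form only in its first letter. Of the 44 chemokine and receptor genes with a promoter entry, 4 held the ISRE core, 9 the GAS letters and 8 the NF-kB form. The 8 were CCL1, CXCL1, CXCL2, CXCL3, CXCL5, CXCL6, CXCL10 and CXCL11. Of these, CXCL1, CXCL2, CXCL3, CXCL5 and CXCL6 lie in the same 364 kb stretch of chromosome 4, so they are not separate cases. Over the same 250 bases of 15813 protein-coding genes, 2.72% held the ISRE core, 6.13% the GAS letters and 1.36% the NF-kB form. The counts were not tested against these shares. A match is a description of these letters and not evidence of binding, and a missing match is not evidence that a site is missing.

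Islands covered chemokine and receptor genes unevenly: 26 of the 64 genes had none in any of the 16 libraries, and 18 had a mean coverage of at least 50%. The share with no island in any library was 40.6% of the chemokine and receptor genes and 67.9% of all protein-coding genes. A mean coverage of at least 50% was reached by 28.1% of the chemokine and receptor genes and by 10.6% of all protein-coding genes. Many of the 64 genes lie side by side and share islands, so these shares describe fewer stretches of chromatin than genes. In single libraries, the number of genes covered by at least 50% was 17, 18, 17 and 20 in combo, 15, 15, 19 and 14 in EPZ, 23, 20, 21 and 19 in P38i, and 23, 19, 17 and 15 in control. The groups overlapped in this number.

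Among the ligands, the inflammatory CXC chemokines that act on CXCR2 had no island. CXCL1, CXCL2, CXCL3, CXCL5, CXCL6 and CXCL8, which draw neutrophils, were at 0 in all 16 libraries. So were CCL5, CCL17, CCL20, CCL22, CCL24, CCL25, CCL26 and CCL27, and the 2 ligands made as membrane-bound proteins, CX3CL1 and CXCL16. None of the 14 CXCL genes reached a mean of 50% over the 16 libraries, whereas 10 of the 26 CCL genes did. These means join treated and untreated libraries. By group, CXCL9 averaged 57.5% in control and 66.4% in P38i, but 13.4% in combo and 0% in EPZ. The highest among CXCL genes over the 16 libraries were CXCL9 at 34.3% and CXCL12, the CXCR4 ligand that holds stem cells in bone marrow, at 31.2%. CXCL14 had 19.6%, CXCL13, which attracts B cells through CXCR5, 16.2%, CXCL17 15.2% and CXCL10 7.11%, while CXCL11 stayed at 4.60%. The CXCL13 islands lay away from its start, with none within 2.5 kb of it in any library.

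The CC ligands with most coverage were CCL18 at 99.2%, CCL3 at 97.7%, CCL23 at 94.6%, CCL15 at 93.7% and CCL14 at 93.3%, as means of 16 libraries. CCL3 is a macrophage chemokine that acts on CCR1, as do CCL14, CCL15 and CCL23. Below them came CCL3L3 at 84.0%, CCL16 at 78.7%, CCL8 at 68.0%, CCL4 at 62.1% and CCL4L2 at 60.7%. CCL3L3 and CCL4L2 are near-identical copies of CCL3 and CCL4, and reads could be split between copies, so these 4 values are uncertain. CCL3L3 ranged over libraries between 27% and 100%, which is wider than its distance to most of its neighbours in this order. CCL21 and CCL19, the CCR7 ligands that bring lymphocytes into lymph nodes, had 46.1% and 42.2%. CCL28 had 34.3%, with a narrow range between 25.7% and 46.6%, but no island within 2.5 kb of its start in any library. CCL1, the CCR8 ligand, had 33.7%, and CCL2, the monocyte chemokine that acts on CCR2, had 25.9%. The eotaxin CCL11 had 9.90%, CCL13 11.5% and CCL7 10.6%, and the lymphotactins XCL2 and XCL1 had 28.1% and 12.0%.

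Among the receptors, coverage was either high or absent with few genes between. CCR8, found on regulatory T cells, had 97.2%, and CCR6, the receptor of CCL20, had 93.6%. CXCR4 had 86.9%, CXCR1 80.5% and CXCR2 77.4%, and CX3CR1, the fractalkine receptor, had 59.9%. CCR7 had 11.2%, XCR1 2.5% and CCR4 1.29%. CCR1, CCR2, CCR3, CCR10, CXCR3, CXCR5 and CXCR6 had no island in any library. The atypical receptors split evenly: ACKR2, a scavenger of inflammatory CC chemokines, had 77.5% and ACKR1, the Duffy antigen, 75.2%, while ACKR3 and ACKR4 were at 0.

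Set side by side, ligands and receptors of some axes lay on opposite sides, and those of other axes did not. CXCR2 was covered and its ligands CXCL1, CXCL2, CXCL3, CXCL5, CXCL6 and CXCL8 were not. CCR6 was covered and CCL20 was not, and CX3CR1 was covered and CX3CL1 was not. The reverse held for CCL3, CCL14, CCL15 and CCL23, which were covered while CCR1 was not. It did not hold for CCL5, also a CCR1 ligand, which was at 0 in all 16 libraries. CCL7, a further CCR1 ligand, had a mean of 10.6%. CXCR4 and CXCL12 were both covered in part of their spans. Within 2.5 kb of the start, the mean was 78.9% for CXCR4 and 0.496% for CXCL12. CXCR6 and its ligand CXCL16 both had no island, as did CCR10 and its ligand CCL27, while CCR8 and CCL1 both had islands. CCL28, another CCR10 ligand, had islands in all 16 libraries, with a mean of 34.3%. These pairs were put together after the values were seen and are not all of the axes, nor all ligands of each receptor. Several of the ligands lie in the same stretch, so they are not separate cases.

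**Figure D1:**
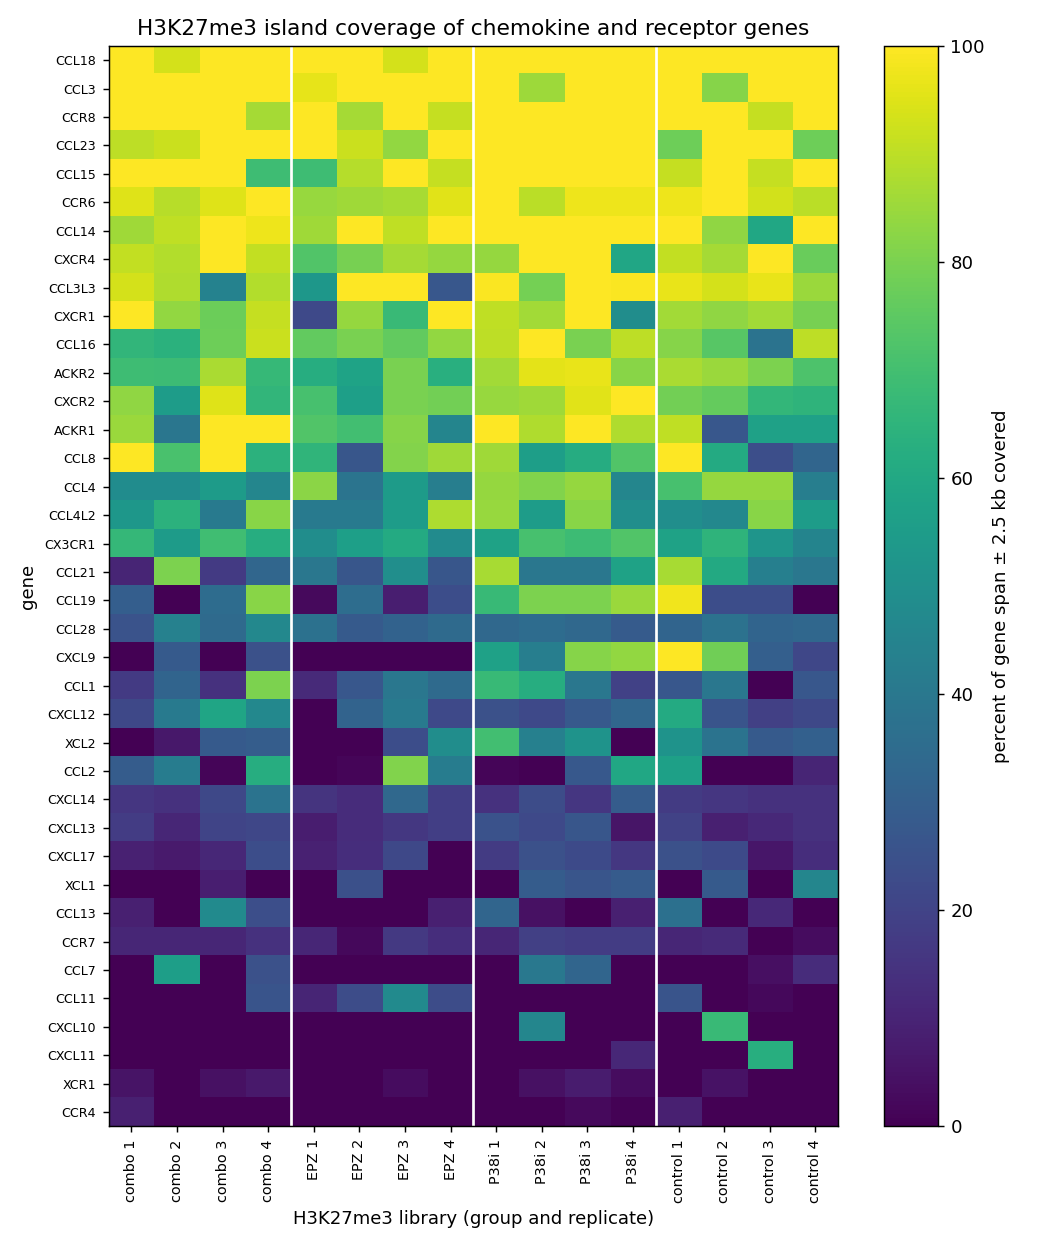
Coverage of the 38 chemokine and receptor genes with an island in at least 1 library, as percent of gene span ± 2.5 kb (colour, 0 to 100), in each of the 16 H3K27me3 libraries (columns), ordered by the mean over libraries. CCL18, CCL3 and CCR8 at the top are covered in every library, and the CXCL9 line is dark in the EPZ libraries and lighter in the P38i and control libraries.

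Stretches that hold several of the genes differed in coverage, and some held covered and uncovered genes side by side. The stretch between CCL5 and CCL4L2 on chromosome 17 spans 346 kb with 10 of the genes, and islands covered 61.7% of it on average, between 55.9% and 71.3% in single libraries. CCL5 at its edge had no island, while the other 9 had means between 60.7% and 99.2%. The stretch between CCL2 and CCL1 on the same chromosome spans 113 kb with 6 monocyte and eosinophil chemokine genes. Its mean coverage was 45.8%, with single libraries between 26.7% and 60.5%, and CCL8 with 68.0% lay beside CCL11 with 9.90%. CCL27 had no island, next to CCL19 with 42.2% and CCL21 with 46.1%. Between CXCL8 and CXCL2 on chromosome 4, a 364 kb stretch with 6 neutrophil chemokine genes had a mean of 1.36% and no library above 4.35%. The pairs CXCR2 and CXCR1, CX3CR1 and CCR8, and XCL2 and XCL1 lay in stretches with means of 76.4%, 76.0% and 54.5%.

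**Figure D2:**
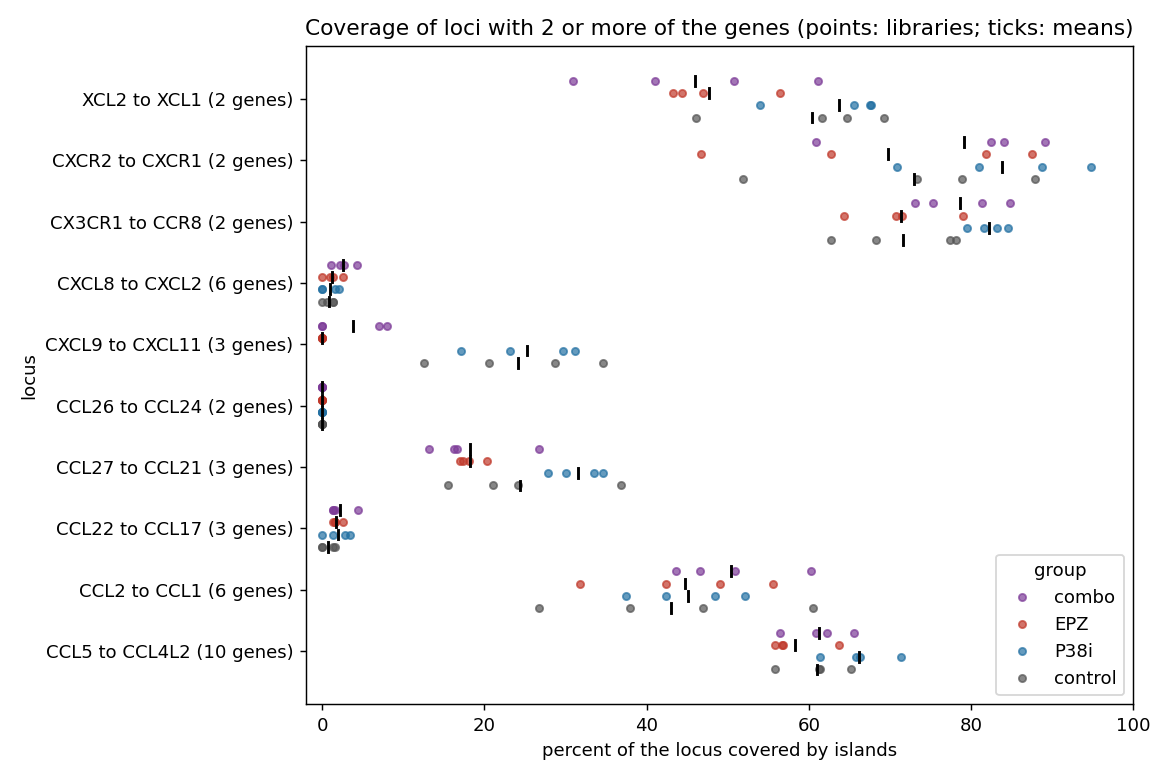
Percent of stretches with 2 or more of the genes that lies within islands (x axis), by stretch (y axis); points are the 4 libraries of a group, ticks are group means, and groups run downward as combo, EPZ, P38i and control. The stretch between CXCL9 and CXCL11 lies at 0 in the 4 EPZ libraries and between 12.6% and 34.7% in the 4 control libraries.

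The EZH2 inhibitor was tested first over both of its groups, as the mean of combo and EPZ minus the mean of P38i and control. CXCL9, an interferon-induced T cell attractant, and ACKR2 fell in coverage, and no chemokine or receptor gene rose. These were 2 of 32 genes that could be tested, or 6.25%, against 16.6% of all 4083 tested genes (limma, Benjamini-Hochberg adjusted p under 0.05). The tested genes had a mean coverage between 5% and 95% over the 16 libraries. Of all tested genes, 15.7% fell. The share among chemokine and receptor genes was below that of all genes, but it rests on 2 calls. Neighbours among the 32 genes share islands, and the difference between the shares was not tested. The median difference was -3.39 percentage points over the 32 genes and -4.86 over all tested genes, and 24 of the 32 (75%) had a lower mean with the inhibitor, against 78.1% of all tested genes. CCL18, CCL3 and CCR8 lay above the upper limit and were not tested, nor were the 29 genes below the lower one.

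CXCL9 lies at chr4:76001275-76007509 on the minus strand. Its coverage was 0, 28.5, 0 and 24.9% in combo libraries and 0 in all 4 EPZ libraries, against 57.0, 42.7, 81.9 and 83.7% in P38i libraries and 100, 78.3, 30.3 and 21.4% in control libraries. The combo libraries 2 and 4 lay above control library 4, and combo library 2 was within 2 percentage points of control library 3, so the groups of 8 overlapped. No chemokine or receptor gene of the 32 had groups of 8 that did not overlap, against 1.59% of all tested genes. The mean was 6.68 ± 12.4% with the EZH2 inhibitor and 61.9 ± 28.4% without it (SD, n = 8 each). The difference was -55.2 points (SE 10.5), with an adjusted p of 0.00470 by limma and a 2-sided exact permutation p of 0.000622. An island lay within 2.5 kb of the CXCL9 start in 2 of 8 libraries with the inhibitor and in 8 of 8 without it. Those of combo libraries 2 and 4 were 3.2 and 2.8 kb wide, those of P38i libraries 1 to 4 were 6.8, 4.8, 9.2 and 8 kb at their widest, and those of control libraries 1 to 4 were 11.8, 8.8, 3.4 and 2.4 kb. Control library 4 had a narrower island than both combo libraries.

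CXCL10 and CXCL11, which share the receptor CXCR3 with CXCL9, lie within 40 kb of it. CXCL10 had no island in the combo and EPZ libraries, and had 46.1% in P38i library 2 and 67.7% in control library 2. Its difference with the EZH2 inhibitor over both groups, -14.2 points (SE 9.38), did not pass, with an adjusted p of 0.312 by limma. CXCL11 likewise had none in combo and EPZ, and had 11.1% in P38i library 4 and 62.5% in control library 3. Each thus had an island in 2 of the 8 libraries without the inhibitor, and they were not the same libraries. CXCL11 fell below the limit for testing. Over the whole stretch between CXCL9 and CXCL11, coverage was 0, 8.04, 0 and 7.04% in combo, 0 in all EPZ, 17.1, 31.2, 23.1 and 29.7% in P38i and 28.7, 34.7, 20.6 and 12.6% in control. The libraries with the inhibitor lay below all those without it over this stretch, which was set out after CXCL9 had been seen and was not tested. The span of ART3 overlaps CXCL10 and CXCL11, so islands there belong to both.

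**Figure D3:**
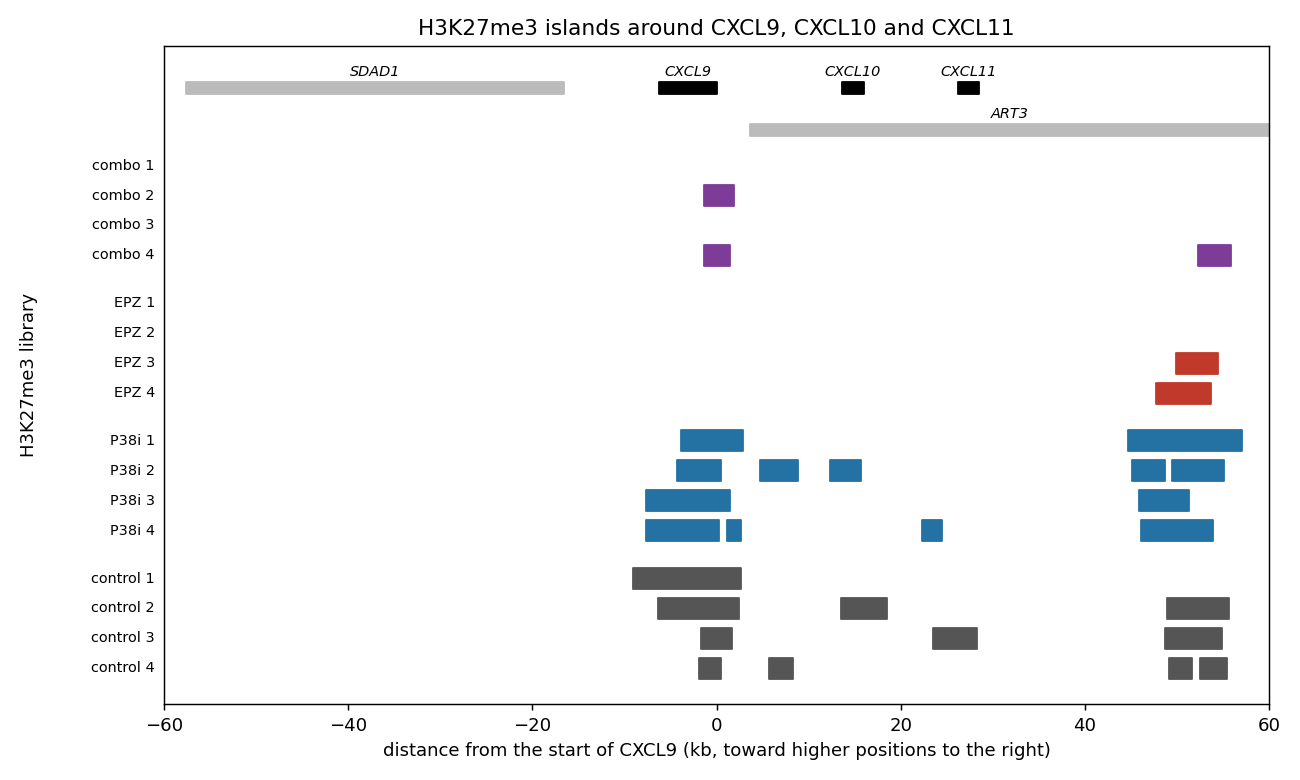
Islands (bars) in each of the 16 libraries within 60 kb of the CXCL9 start, with x as distance in kb toward higher genome positions, and with CXCL9, CXCL10, CXCL11, SDAD1 and ART3 drawn above. Islands at CXCL9 are seen in combo libraries 2 and 4, in no EPZ library, and in all P38i and control libraries.

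ACKR2 lies at chr3:42809445-42867286. Its coverage was 69.1, 68.7, 87.3 and 66.9% in combo and 62.1, 57.9, 79.9 and 63.1% in EPZ, against 86.3, 95.9, 96.8 and 82.2% in P38i and 87.3, 85.0, 80.3 and 72.0% in control. Combo library 3 was as high as the highest control library, and control library 4 was lower than EPZ library 3. The mean was 69.4 ± 9.71% with the EZH2 inhibitor and 85.7 ± 8.11% without it (SD, n = 8 each), a difference of -16.3 points (SE 4.15). The adjusted p was 0.0170 by limma, and the exact permutation p was 0.00357. The gene held 6 to 9 islands in combo, 6 to 12 in EPZ, 3 to 5 in P38i and 4 to 6 in control libraries, so the numbers with and without the EZH2 inhibitor met at 6. The widest of these was 12.8 to 17.6 kb in combo, 8.2 to 18 kb in EPZ, 21.2 to 36.4 kb in P38i and 12 to 32.2 kb in control.

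The total length covered by islands moved with both genes. Over the 16 libraries, Pearson's r with covered length was 0.607 for CXCL9 and 0.786 for ACKR2, as a description over libraries that include the treatments. With covered length as a covariate, the difference at CXCL9 was -46.8 points with an adjusted p of 0.0279, and that at ACKR2 was -10.7 points with an adjusted p of 0.0759 (limma). With each list cut to its widest islands so that all covered the same length, CXCL9 differed by -33.9 points with an adjusted p of 0.175, and ACKR2 by -20.2 points with 0.0431 (limma). This cut removed islands by width, at a different limit in each library. The shortest island kept was 8.4, 5.4 and 10 kb in P38i libraries 1 to 3 and 5.8 kb in control library 3. Their CXCL9 islands, at most 6.8, 4.8, 9.2 and 3.4 kb wide, were therefore dropped. Those of combo libraries 2 and 4, 3.2 and 2.8 kb against limits of 3.6 and 5 kb, were dropped too. The CXCL9 value under this setting thus depends on island width as well as covered length. Over the alternatives, the adjusted p ranged between 0.00149 and 0.175 for CXCL9 and between 0.00763 and 0.0759 for ACKR2.

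With EPZ against control, no chemokine or receptor gene passed, 0 of 32 against 3.26% of all tested genes (limma, adjusted p under 0.05). At an unadjusted p under 0.05 there were 3 of 32, against 20.9% of all. The 3 with the largest test statistics were CXCL9, ACKR2 and CCL11. CXCL9 averaged 0% in EPZ and 57.5 ± 37.8% in control (SD, n = 4 each), a difference of -57.5 points (SE 14.9) with an adjusted p of 0.0503 by limma. Its EPZ libraries lay below all control libraries, with an exact permutation p of 0.0286, the smallest that 4 against 4 allows. It was the 1 gene of 32 whose groups did not overlap, against 8.43% of all tested genes. A group at 0 in every library lowers the spread that the fit shares, so the p of such a gene may be too low. The CXCL9 call changed with the setting: it passed without the 2.5 kb flanks, at 0.0451, without P38i library 4, at 0.0426, and without control library 4, at 0.0118. Over the alternatives its adjusted p ranged between 0.0118 and 0.244.

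ACKR2 averaged 65.7 ± 9.68% in EPZ and 81.1 ± 6.76% in control, with an adjusted p of 0.153 by limma. CCL11, an eosinophil attractant that acts on CCR3, ran the other way. It had 10.5, 23.2, 47.9 and 23.2% in EPZ, against 25.8, 0, 2.09 and 0% in control. Control library 1 stood among the EPZ values and the other controls were near 0. The difference was 19.2 points (SE 7.84), with an adjusted p of 0.180 by limma and an exact permutation p of 0.114, and it was 12.0 points without EPZ library 3.

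With combo against control, again 0 of 32 genes passed, against 1.69% of all tested genes, and 1 of 32 had an unadjusted p under 0.05, against 18.5% of all (limma). Groups overlapped at all 32 genes, while they did not at 8.08% of all tested genes. CXCL9 averaged 13.4 ± 15.5% in combo and 57.5 ± 37.8% in control, a difference of -44.1 points (SE 14.9) with an adjusted p of 0.131; without control library 4 the adjusted p was 0.0350, the lowest of a range over alternatives up to 0.339. CCL4, a macrophage chemokine, had 48.8, 48.8, 54.7 and 45.9% in combo and 70.7, 84.2, 84.2 and 42.9% in control. Control library 4 lay below all combo libraries, and the other 3 above them, with an adjusted p of 0.338 by limma. CCL8, a monocyte attractant, had 100, 71.3, 100 and 64.1% in combo, against 100, 61.2, 23.9 and 32.5% in control. Its difference of 29.4 points (SE 16.1) had an adjusted p of 0.349, and control library 1 was as high as the highest combo libraries. The CCL8 difference was 44.6 points without control library 1 and 19.3 points without control library 3.

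With combo against P38i, the comparison that adds the EZH2 inhibitor to the p38 inhibitor, 0 of 32 genes passed, against 1.91% of all tested genes. At an unadjusted p under 0.05 there were 4 of 32, against 20.3% (limma). CXCL9 averaged 13.4 ± 15.5% in combo and 66.4 ± 19.9% in P38i (SD, n = 4 each). The difference was -53.0 points (SE 14.9), with an adjusted p of 0.0870 by limma and an exact permutation p of 0.0286, and the groups did not overlap. It was the 1 gene of 32 without overlap, against 10.8% of all tested genes. Its adjusted p was 0.0404 without the flanks and 0.0450 without control library 1, in a range over alternatives between 0.0404 and 0.769. ACKR2 differed by -17.3 points (SE 5.87) with an adjusted p of 0.135. CCL19 had 29.8, 0, 35.4 and 82.1% in combo, against 67.2, 80.2, 80.2 and 85.1% in P38i. Combo library 4 reached the P38i range and the other 3 lay below it; the adjusted p was 0.233 by limma.

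**Figure D4:**
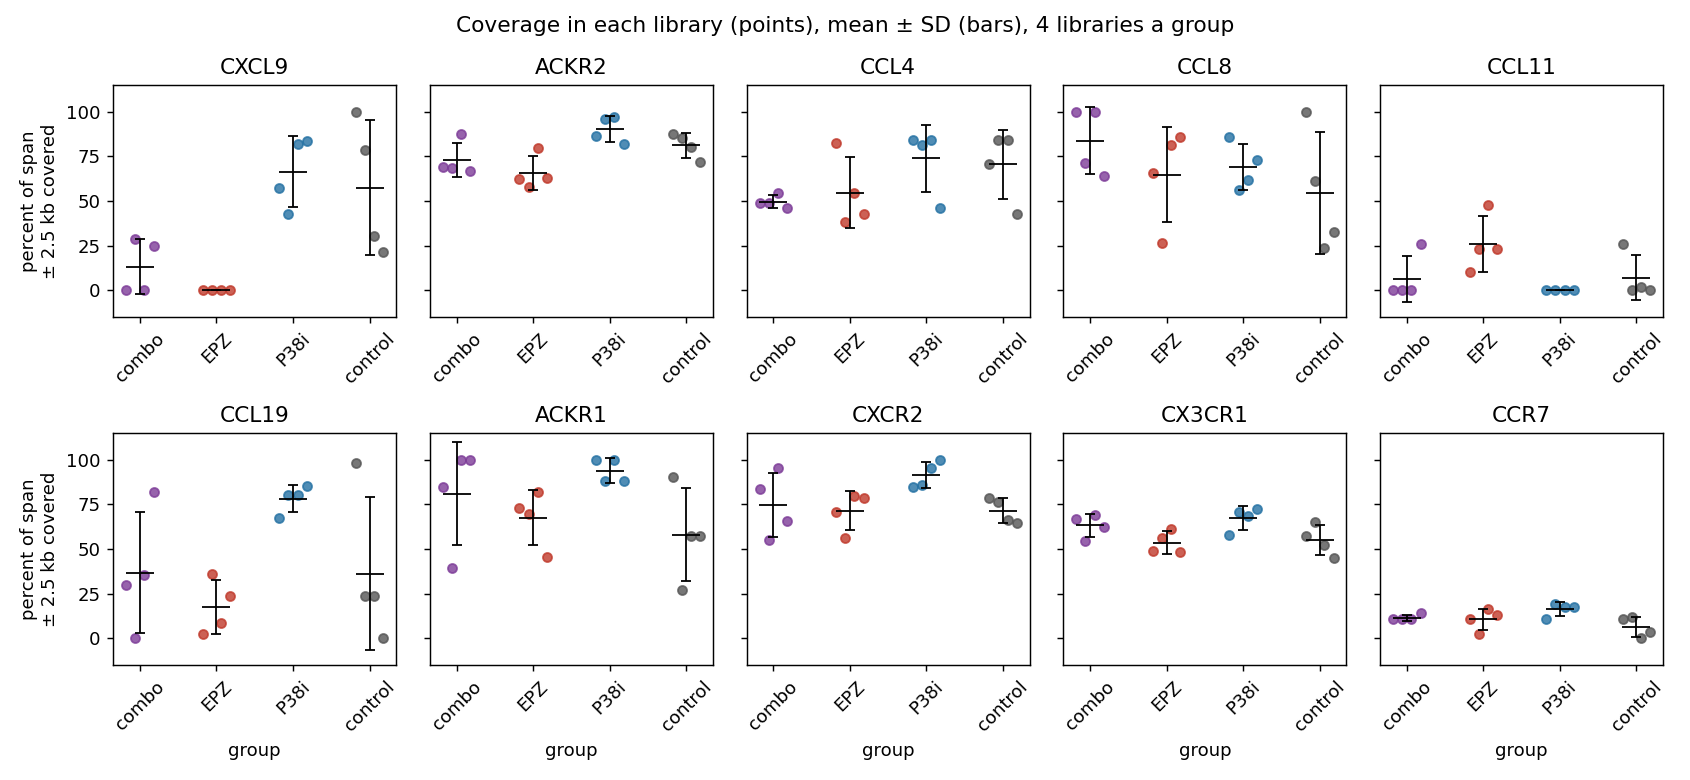
Coverage in percent of span ± 2.5 kb (y axis) of 10 genes named in the comparisons, by group (x axis); points are libraries, bars are mean ± SD of 4 libraries. CXCL9 is at 0 in the 4 EPZ libraries and between 21.4% and 100% in the control libraries, and ACKR2 is lower on average in combo and EPZ than in P38i and control.

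The p38 inhibitor was tested in the same way, as the mean of combo and P38i minus the mean of EPZ and control. No chemokine or receptor gene passed, 0 of 32 against 0.122% of all tested genes, and 6 of 32 had an unadjusted p under 0.05, against 13.3% of all (limma). Groups of 8 overlapped at all 32 genes, and did not at 0.049% of all tested genes. The median difference was 5.84 points over the 32 genes and 3.02 over all tested genes, and 27 of the 32 had a higher mean with the inhibitor, as had 77.0% of all tested genes. CX3CR1 averaged 65.4 ± 6.50% with the p38 inhibitor and 54.3 ± 6.89% without it (SD, n = 8 each), with an adjusted p of 0.236 by limma and an exact permutation p of 0.00777. ACKR1, which carries chemokines on red cells and venules, averaged 87.5 ± 20.6% with it and 62.8 ± 20.4% without it, with an adjusted p of 0.303. CCL11 averaged 3.23 ± 9.12% with it and 16.6 ± 16.7% without it, with an adjusted p of 0.330.

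With P38i against control, 0 of 32 genes passed, against 0.269% of all tested genes, and 5 of 32 had an unadjusted p under 0.05, against 10.1% of all (limma). CXCR2, the neutrophil receptor, had 84.7, 85.8, 95.6 and 100% in P38i, against 78.7, 76.4, 66.1 and 64.9% in control. The groups did not overlap, as for 1 gene of 32 and 3.38% of all tested genes; the adjusted p was 0.422 by limma and the exact permutation p was 0.0286. ACKR1 had 100, 87.9, 100 and 87.9% in P38i, against 90.6, 27.2, 57.3 and 57.3% in control. Control library 1 lay within the P38i range and the others below it; the difference was 35.9 points (SE 13.8) with an adjusted p of 0.413. Without the flanks of 2.5 kb the ACKR1 difference was 8.89 points. CCR7, the lymph node homing receptor, averaged 16.3 ± 3.83% in P38i and 6.46 ± 5.68% in control, with an adjusted p of 0.355 by limma. CXCL9 was not lower on average in P38i than in control, with 66.4 ± 19.9% and 57.5 ± 37.8%.

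With combo against EPZ, 0 of 32 genes passed, against 0% of all tested genes, and 1 of 32 had an unadjusted p under 0.05, against 5.44% of all (limma). CCL11 averaged 6.45 ± 12.9% in combo and 26.2 ± 15.6% in EPZ, with an adjusted p of 0.841; the difference was -19.7 points, and -12.5 without EPZ library 3. CCR6 averaged 94.8 ± 4.35% in combo and 88.2 ± 5.10% in EPZ, with an adjusted p of 0.884. CCL7 had islands in combo libraries 2 and 4, with 56.1 and 24.8%, and in no EPZ library, with an adjusted p of 0.884. The CCL7 difference was 20.2 points, and 8.27 without combo library 2. CXCR4 was the 1 gene of 32 whose groups did not overlap, against 2.99% of all tested genes. It had 90.9, 88.6, 100 and 90.9% in combo and 72.7, 79.5, 86.4 and 84.1% in EPZ, with an adjusted p of 0.884.

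The interaction asks whether the EZH2 inhibitor acts differently with and without the p38 inhibitor, as combo minus EPZ minus P38i plus control. No chemokine or receptor gene passed, 0 of 32 against 0.0245% of all tested genes, and none had an unadjusted p under 0.05, against 3.4% of all (limma). The largest statistics belonged to CCR7 at -8.94 points (SE 4.86), CCL16 at -23.0 points (SE 13.1) and CXCL12 at 23.5 points (SE 14.6), each with an adjusted p of 1. The CCL16 value was -12.0 points without control library 3. The CXCL12 value was 13.8 points without control library 1 and 15.6 points without EPZ library 1. CXCL12 averaged 42.1 ± 15.5% in combo, 23.7 ± 17.6% in EPZ, 26.9 ± 4.73% in P38i and 32.0 ± 19.7% in control (SD, n = 4 each). The comparisons share libraries, so their values for a gene are not independent of each other.

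Other genes of the pathway were read from 4 lists. Of 64 genes of chemokine receptor signalling, 39 had no island in any library and 19 could be tested. With the EZH2 inhibitor over both groups, 5 of the 19 fell and none rose, against 15.7% and 0.882% of all tested genes. The median difference over the 19 was -1.98 points, against -4.86 over all tested genes. RGS genes can lie side by side and share islands, so calls among them need not be independent. RGS13, a regulator that ends G protein signalling in B cells, averaged 32.2 ± 17.7% in combo and EPZ libraries and 81.7 ± 11.8% in P38i and control libraries (SD of 8 libraries each), with an adjusted p of 0.00191 by limma. RGS2, of the same family, averaged 2.09 ± 5.90% with it and 37.7 ± 24.1% without it (adjusted p 0.0139, limma). PIK3CG, the catalytic subunit of the PI3-kinase that chemokine receptors switch on, averaged 63.0 ± 12.5% with it and 83.6 ± 6.62% without it (adjusted p 0.0164, limma). ADCY5, an adenylyl cyclase, averaged 15.8 ± 7.45% with it and 29.4 ± 12.7% without it (adjusted p 0.0380, limma). RGS13 also fell with EPZ against control, combo against control and combo against P38i, with adjusted p of 0.0252, 0.0351 and 0.0401 by limma. No gene of this list passed in the other comparisons.

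Of 26 chemokine-related genes outside the symbol rule, 18 had no island and 6 could be tested. TAFA2, a secreted chemokine-like protein of the brain, fell with the EZH2 inhibitor, with 19.3 ± 3.81% with it and 31.3 ± 5.93% without it (SD, n = 8 each, adjusted p 0.0148, limma). It was 1 of the 6, where 15.7% of all tested genes fell. The chemerin receptor CMKLR1 had a mean coverage of 83.1% over the 16 libraries. Of 32 NF-kB factors and cytokines that induce chemokines, 28 had no island, and neither of the 2 that could be tested passed in any comparison. IL17A was covered by 100% in every library. Of 15 proteoglycans that bind chemokines, 9 had no island and 2 could be tested, and neither passed.

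Among the genes themselves, coverage varied together to a limited degree. Over the 16 libraries, the most alike pairs from different stretches were CXCL13 and XCL2 with a Pearson's r of 0.707, CX3CR1 and CXCR2 with 0.697, and ACKR2 and CXCR2 with 0.680. Of the 35 genes with a mean of at least 5%, 32 had a positive r with the covered length of the library, with a median of 0.373 and a range between -0.208 and 0.827. Libraries shared treatment and covered length, so these are descriptions.

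Promoters of chemokine and receptor genes were poor in CpG. The median was 4 CpGs in the 300 bases around the start over 44 genes with a RefSeq entry, against 22 over 15813 protein-coding genes. It was 3 CpGs for the 23 genes with a mean coverage of at least 5% and 4 for the 18 genes at 0. Across the 44 genes, Pearson's r of CpG count with coverage within 2.5 kb of the start was -0.0982 and Spearman's rho was -0.202, as a description across genes. The 6 genes with at least 20 CpGs were CXCR4 with 27, CXCL12 with 39, CXCL14 with 31, CXCL1 and CXCL2 with 22 and CXCL3 with 24. Around their starts, CXCR4 had 78.9% and CXCL14 51.7%, while CXCL12 had 0.496% and the other 3 had none. CXCL9, with no CpG in its 300 bases, had 47.5% around its start.

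**Figure D5:**
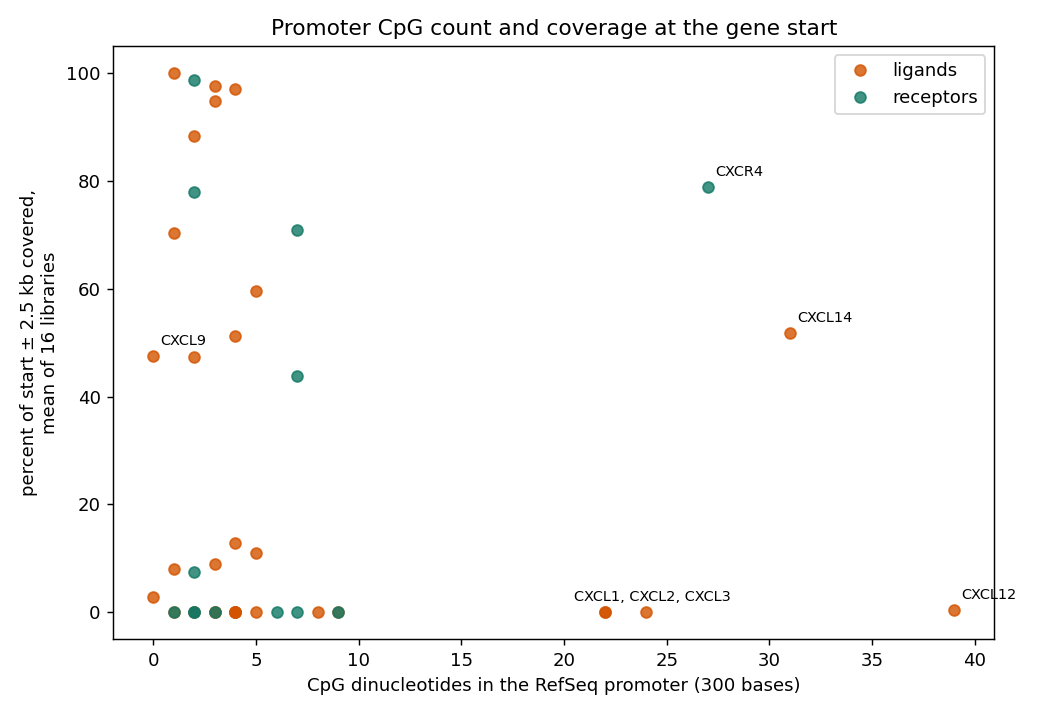
CpG dinucleotides in the 300 bases of each RefSeq promoter (x axis) and percent of the 2.5 kb on each side of the start that lies within islands, mean of 16 libraries (y axis), for 44 chemokine and receptor genes (points; colours are ligands and receptors). Genes with few CpGs lie at every level between 0 and 100%, and CXCR4 and CXCL12, both with many CpGs, lie at 78.9% and 0.496%.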

How the data were processed

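The data are 16 H3K27me3 island lists of MDA-MB-231 cells, 4 per group. The authors deposited island start and end positions on hg38, with no other unit, count or score. Per the submitters' processing notes, the tools named were SICER, Picard, Bowtie2 2.3.4.1, bedtools 2.28.0, FastQC, SAMtools 1.2, cutadapt and Trim Galore. Neither their order nor their settings are stated in these sources. Islands fell on windows of 200 bp. Merging of nearby windows by the caller can join or split islands, which moves coverage at gene edges.

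For each protein-coding gene of RefSeq GRCh38.p14, the percent of span ± 2.5 kb within islands was computed. The 4083 genes with a mean of 5 to 95% entered 1 fit of 16 libraries in limma 3.58.1 under R 4.3.3, using its robust and trend options. P-values were adjusted by Benjamini-Hochberg over all tested genes, with a threshold of 0.05. Single genes were also given 2-sided exact permutation tests (scipy 1.17.1). The fit was tested on simulated data with independent normal noise for each gene. Shifts were placed only in genes with a higher mean coverage than CXCL9, and neighbouring genes shared no noise. The simulation therefore does not speak for the CXCL9 call. Of the 66 genes of the rule, 2 were not placed.

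The genes and lists were chosen with earlier results of these data known. Genes named in a comparison were those past the threshold, or the 3 with the largest test statistics where none passed; CXCL8, CXCL10, CXCL11 and CXCR4 were added after their values were seen. Alternatives changed the flank, the filter, the scale, the model and the libraries used. Promoters came from RefSeq and matched 44 genes. Samples with the same replicate number did not vary together (r between -0.151 and 0.179 over 24 pairs), so numbers were not used as pairs. Some results for single genes are not reported here.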

Additional observations from a re-analysis of the deposited data

Results flagged for a closer look

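In 7 of 53 groups of 4 libraries examined over 14 named genes, 1 library stood apart from the other 3 by Dixon's 95% criterion. For continuous, normally spread values the criterion would flag about 1 in 20 groups. Coverage here has ties, some at 0, which favour a flag, and the genes were picked by their statistics. The number flagged can therefore not be compared with that rate. The p-values of these genes include the library that stood apart.

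ACKR2 had 87.3% in combo library 3, against 66.9 to 69.1% in the other combo libraries. CCL11 had 25.8% in combo library 4 and 0 in the others, and 25.8% in control library 1 against at most 2.09% in the others. CCL4 had 45.9% in P38i library 4, against 81.2 to 84.2% in the others. CCR7 had 10.6% in P38i library 1, against 17.8 to 19.0% in the others, and 14.2% in combo library 4 against 10.6% in the others. CXCL12 had 61.2% in control library 1, against 19.1 to 26.1% in the others.

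Combo library 3 covered 615 Mb, the most of its group, and combo library 4 covered 587 Mb. P38i libraries 1 and 4 covered 649 and 533 Mb, and control library 1 covered 669 Mb. ACKR2 coverage had a Pearson's r of 0.786 with covered length over the 16 libraries. The part of covered length in the values that stood apart was not tested.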

How the results depend on the processing

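For the genes named by the rule for comparisons, 24 to 27 alternatives could be fitted per gene and none reversed a direction; genes added later and genes of the 4 pathway lists were not followed across alternatives. With the EZH2 inhibitor over both groups, 2 genes passed; the number was 4 with a flank of 5 kb (ACKR2, CCL4, CXCL9 and XCL1), and 1 each with covered length as a covariate (CXCL9), with lists of equal length (ACKR2) and with the window at the gene start (CXCL9, as ACKR2 could not be tested there). Leaving out each library gave 2 to 4, with 4 without P38i replicate 4, where CCL4 and XCL2 were added. For EPZ against control, 1 gene in place of 0 passed (CXCL9) with no flank, a flank of 5 kb, the arcsine scale, no trend and robust options, or without the 3 libraries of the narrowest islands, a setting chosen after seeing the data. Leaving out each library gave 0 to 1 there, with 1 without P38i replicate 4 and without control replicate 4. For combo against P38i, 1 passed with no flank and leaving out each library gave 0 to 1, with 1 without control replicate 1; for combo against control this gave 0 to 1, with 1 without control replicate 4. Each of these was CXCL9. The cause was not tested. The other 4 comparisons gave 0 throughout.

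With the replicate block, 2 genes passed for the EZH2 inhibitor, CXCL9 and ACKR2, each with an adjusted p of 0.0130 by limma, and no call among the named genes changed. Over all genes, the number passing for the EZH2 inhibitor was 678 and ranged between 40 and 930, and for EPZ against control it was 133 and ranged between 1 and 417. The like number was 69 (0 to 358) for combo against control, 78 (10 to 230) for combo against P38i, 11 (0 to 27) for P38i against control, 5 (0 to 32) for the p38 inhibitor, 0 (0 to 1) for combo against EPZ and 1 (0 to 4) for the interaction. Island lists hold no depth, so a gene near the caller's limit can switch between covered and not covered.

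Among differences that did not pass, the following moved by over 1.5 times, in percentage points. With a flank of 5 kb, ACKR1 for P38i against control was 23, CCL4 and CCL8 for combo against control were -13.6 and 17.1, CCL11 and CCR6 for combo against EPZ were -7.82 and 3.04, and CCL11 for the p38 inhibitor was -8.28. With no flank, CXCR2 for P38i against control was 13 and CCL19 for combo against P38i was -25.5. With lists of equal length, ACKR1 for P38i against control was 23, CXCL9 and ACKR2 for combo against P38i were -17.8 and -27.3, CX3CR1 and CCL11 for the p38 inhibitor were 6.0 and -7.23, and CCL16 for the interaction was -54.5. At the gene start, CXCR2 for P38i against control was 40.0, CCL7 for combo against EPZ was 9.6 and CX3CR1 for the p38 inhibitor was 52.7. With covered length as a covariate, ACKR2 for EPZ against control was -9.41.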
